A study of Bos taurus with 18 samples.

Results

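Differentiation by serum withdrawal was followed in bovine satellite cells by comparing 3 libraries of poly(A) RNA made after 72 h in differentiation medium with 2% fetal bovine serum (DM) with 3 libraries made at 0 h in growth medium with 20% fetal bovine serum (GM). The comparison takes up 6 of the 18 libraries of the series. It covers every gene identifier that passed an expression filter, 14637 of the 27607 in the deposited count table. The cells came from Belgian Blue cattle, a breed known for its heavy muscling, and grew on collagen-coated flasks. DM cells had grown in GM before the switch. The other libraries, 3 for each medium, came from serum-free growth medium at 0 h (SFGM) and from cells moved from SFGM for 72 h into a serum-free base medium (SFB), a serum-free differentiation medium based on DMEM/F-12 (SFDM) or its version based on DMEM (DMEM). Serum content and time in culture changed together between GM and DM and cannot be told apart. Replicates A, B and C are described as biological, and nothing says whether they were animals or cultures, so p-values reflect only how these libraries varied, which may be technical. In bulk RNA, fewer cells of a type and less RNA per cell cannot be told apart.

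Satellite cells are the resident stem cells of skeletal muscle. When growth factors are withdrawn in culture, these cells are known to leave the cell cycle, to switch on muscle transcription factors such as myogenin, and to fuse into multinucleated myotubes. The myotubes then build sarcomeres, the contractile units, from proteins that proliferating cells hardly make. The deposited identifiers could not be paired with gene symbols here. Markers of satellite cells, of muscle differentiation and of other cell types were therefore not analysed, and the cell type given by the labels was not checked against them. Genes are described below in groups set by how they changed, and 4 identifiers serve as examples.

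The GM libraries held 25882127 to 28288987 counts and the DM libraries 22494116 to 25669196. Replicates lay far closer to each other than to the other medium. The root mean square difference in log2 CPM (counts scaled to a common library total) was 0.264 to 0.349 between GM libraries, 0.313 to 0.475 between DM libraries and 1.48 to 1.55 between a GM and a DM library. DM varied more between its replicates than GM, with a median standard deviation per gene of 0.171 against 0.120 log2 units. Among the 9217 genes with a mean of at least 10 CPM over the 6 libraries, these medians were 0.132 and 0.0914. Replicate C stood furthest from the others in DM, at 0.414 from A and 0.475 from B. GM replicates A and B were the closest pair, but their counts still differed by 1.90 times the sampling noise (chi-square per degree of freedom), and all libraries were kept as separate samples.

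Most genes changed over the 72 h. At an adjusted p under 0.05, 10199 genes were called, which is 69.7% of those tested. Of these 4999 rose (34.2%) and 5200 fell (35.5%). Libraries were also matched by letter, a pairing that the labels do not state. Over all genes tested, called or not, the difference between DM and GM had the same sign in all 3 letters for 12468 of 14637. All 3 DM libraries lay above all 3 GM libraries for 5173 genes (35.3% of those tested) and below them for 5418 (37%). Calls come from the quasi-likelihood test of edgeR, with p-values adjusted by Benjamini-Hochberg over all genes tested.

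**Figure D1:**
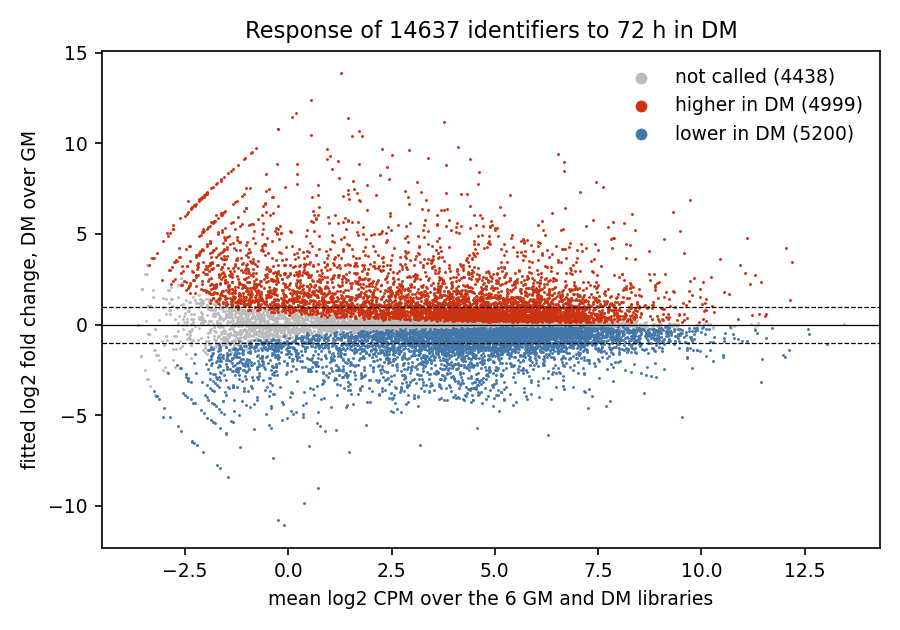
Fitted log2 fold change of DM over GM (vertical axis) against the mean log2 CPM over the 6 GM and DM libraries (horizontal axis), 1 point per identifier, with dashed lines at 2-fold. Red points are the 4999 that rose, blue points the 5200 that fell and grey points the 4438 not called.

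The 4438 genes not called are not all shown to be unchanged. The 95% interval of the fold change lay within 1.5-fold in either direction for 2447 of them, which is 55.1%, and within 2-fold for 3534. For 644 of the 4438 the libraries of the groups did not overlap, against 9947 of the 10199 genes called. With 3 against 3 libraries the smallest exact two-sided permutation p is 0.1, so such a separation alone does not show a change. The smallest change that passed the test was 0.11 on the log2 scale.

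Large changes were more often rises, but at 2-fold this rested on genes scarce in SFGM. At least 2-fold rises numbered 2653 (18.1% of the genes tested) and at least 2-fold falls 2167 (14.8%). Genes below 1 CPM in SFGM gave 920 of these rises and 292 of these falls. Such genes can have passed the filter through another medium. The counts were 784 rises and 538 falls at 1 to 10 CPM in SFGM and 775 and 1009 at 10 to 100 CPM. At 100 to 1000 CPM they were 169 and 303, and from 1000 CPM 5 and 25. Grouping by SFGM level can itself favour this order. At least 16-fold, 445 genes rose and 131 fell. The typical rise was 1.07 on the log2 scale and the typical fall 0.85 (medians of the absolute change). Among falls 58.3% were under 2-fold, and among rises 46.9%. With library totals as the only scaling, the counts at 2-fold turned to 2403 rises and 2497 falls, while those at 16-fold stayed unequal at 415 and 147. A count with libraries matched by letter was stricter, although the labels do not state such a pairing. All 3 letters changed by at least 2-fold for 2099 of the 2653 rises and 1698 of the 2167 falls.

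The genes that rose at least 16-fold mostly started at a low level and together became an appreciable part of the RNA. Their median level was 0.179 CPM in GM and 13.0 CPM in DM. Together they held 0.351% to 0.362% of the counts in the GM libraries and 10.9% to 12.1% in the DM libraries. Of the 445, 56 had no count in any GM library, so their fitted folds are not measured ratios. The 131 genes that fell at least 16-fold went from a median of 6.70 CPM in GM to 0.183 CPM in DM, and from a mean of 1.20% of the counts to 0.0439%. These groups were chosen by their change in these libraries, and the values describe them.

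How these genes behaved without serum was read from SFDM against SFGM, which shares no library with DM against GM. Over all genes tested, 28.0% rose and 33.4% fell there. Of the genes that rose less than 1.5-fold in DM, 45.2% also rose in SFDM and 13.2% fell. Of the 1355 that rose 2-fold to 4-fold, 64.9% rose. Of the 276 that rose at least 32-fold, 88.8% rose and 1 gene fell. Falling genes showed a less regular order. The share that also fell in SFDM was 52.0% for falls under 1.5-fold, 77.5% for falls of 2-fold to 4-fold, 86.9% for falls of 8-fold to 16-fold and 79.5% for the 44 genes that fell at least 32-fold.

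**Figure D2:**
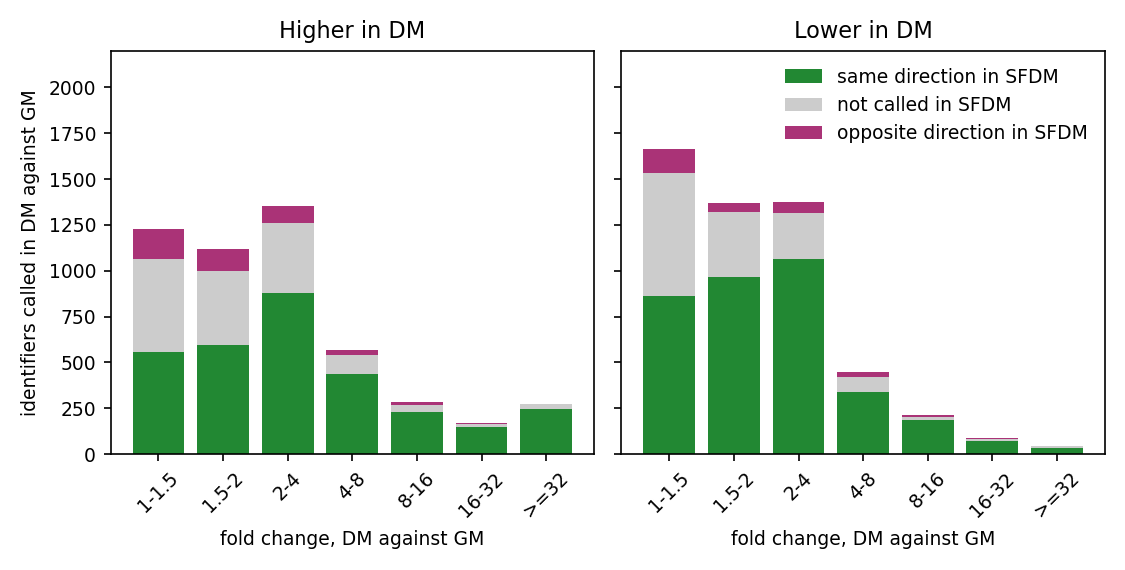
Number of genes (vertical axis) by the size of their fold change in DM against GM (horizontal axis), with genes higher in DM on the left and genes lower in DM on the right. Each bar is split by the call in SFDM against SFGM, and the part called in the same direction is 45.2% of the smallest rises and 88.8% of the largest.

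Of the 7995 identifiers eligible as examples, 4 stood at the extremes. ENSBTAG00000013492 had 0 counts in each GM library and 1795, 1440 and 1886 counts in DM replicates A, B and C. These DM counts correspond to 72.6, 66.5 and 84.3 CPM, a mean of 74.5 ± 9.07 (SD, n = 3). The DM mean was at least 2122-fold higher than the floor of 3 counts over the GM group (edgeR adjusted p = 3.60e-14). In the other media it had 2 to 5 counts per library in SFGM, 0.963 to 1.58 CPM in SFB, 8.70 to 12.0 CPM in DMEM and 22.2 to 26.2 CPM in SFDM. No library of these media reached the level of any DM library.

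ENSBTAG00000008763 also had 0 counts in each GM library, and it had 702, 540 and 625 counts in DM replicates A, B and C. Its DM level was 28.4, 24.9 and 28.0 CPM, at least 772-fold above the same floor (edgeR adjusted p = 3.00e-13). Unlike the first example, its levels in the serum-free differentiation media overlapped those in DM. It stood at 28.3 to 31.8 CPM in SFDM and 23.0 to 27.2 CPM in DMEM. In SFB its mean was 0.786 ± 0.271 CPM (SD, n = 3), below every library of the other 72 h media.

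ENSBTAG00000038361 went the other way, from 319, 306 and 290 counts in GM replicates A, B and C to 0 in each DM library. Its GM level was 10.9, 10.4 and 10.8 CPM, at least 245-fold above the floor of 3 counts over the DM group (edgeR adjusted p = 3.80e-12). SFGM cells, also taken at 0 h in a growth medium, had only 0.821 to 0.893 CPM, below every GM library. DMEM libraries had 0 counts, SFDM libraries 1 to 3 counts and SFB libraries 6 to 9.

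ENSBTAG00000033748 had 232, 280 and 240 counts in GM replicates A, B and C and 0 in each DM library. Its GM level was 7.95, 9.54 and 8.90 CPM, at least 202-fold above the DM floor (edgeR adjusted p = 1.06e-10). It stood at 1.46 to 1.92 CPM in SFGM and had 0 to 5 counts in every serum-free library at 72 h. Both falling examples were thus highest in GM, with SFGM second and no overlap between these groups.

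**Figure D3:**
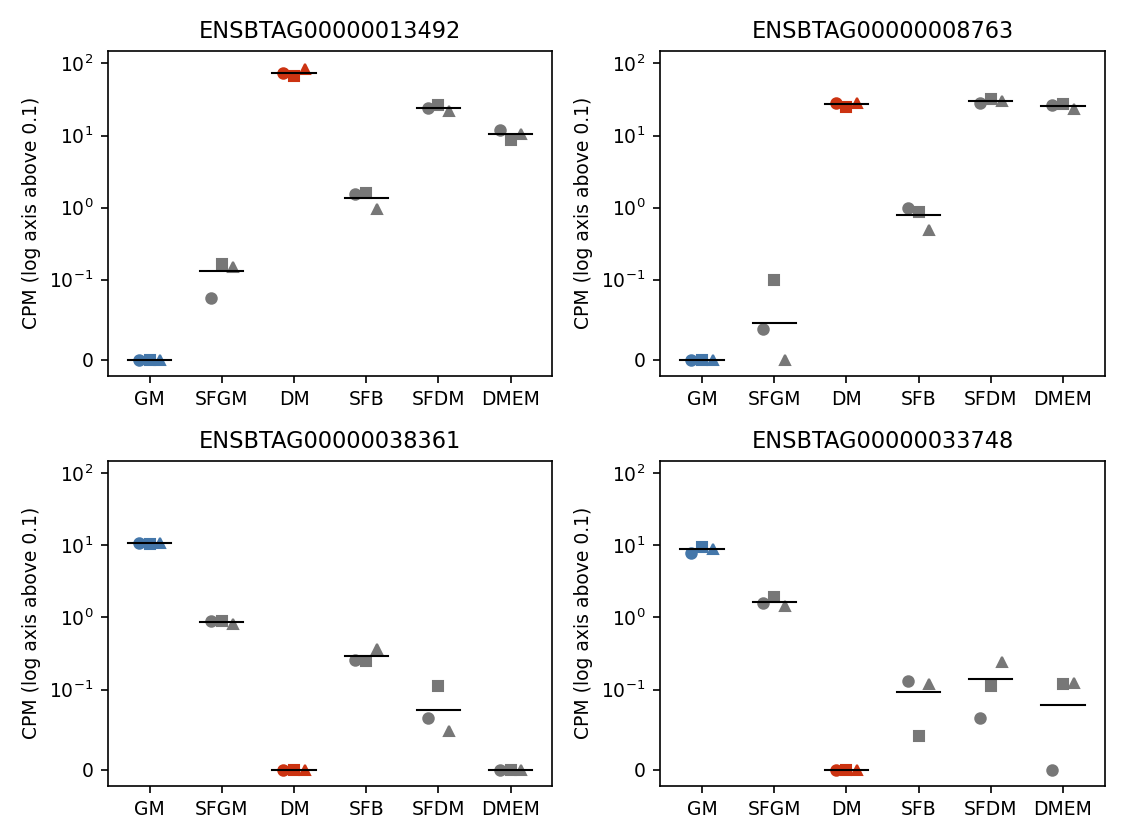
CPM of the 4 example identifiers (vertical axes, logarithmic above 0.1 CPM and linear below) in the libraries of the 6 media (horizontal axes), with circles, squares and triangles for replicates A, B and C and a bar for the mean. The rising pair is at 0 in GM, and ENSBTAG00000008763 is at a similar level in DM, SFDM and DMEM while ENSBTAG00000013492 is highest in DM.

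Few genes had 0 counts in one group and at least 10 in each library of the other. In all, 36 of the 27607 identifiers had 0 counts in every GM library and at least 10 in each DM library. Their DM level was 0.468 to 74.5 CPM, with a median of 1.17. Of the 36, 16 also had 0 counts in all SFGM libraries, and none had 10 counts in each. In the serum-free media at 72 h, 18 of the 36 had at least 10 counts in each DMEM library, 17 in each SFDM library and 7 in each SFB library. The reverse pattern, 0 counts in every DM library and at least 10 in each GM library, was seen for 8 identifiers, and 7 of these had at least 10 counts in each SFGM library. A count of 0 over a group allows up to 0.0351 CPM in GM and 0.0436 CPM in DM.

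Counts were more concentrated in abundant genes in DM than in GM. The 10 most abundant genes of each library held 7.89%, 8.01% and 8.25% of the counts in GM replicates A, B and C and 9.37%, 9.04% and 9.99% in DM. The 100 most abundant held 22.9%, 22.9% and 23.6% in GM and 27.4%, 27.1% and 28.8% in DM. Without the most abundant gene of each library, the difference between the mean shares of the top 10 was 0.906 percentage points in place of 1.41. DM was higher in every library on both measures, and replicate C was highest in both GM and DM. The number of genes needed to reach 50% of the counts was 683 to 696 in GM and 544 to 596 in DM. By an exact permutation test (two-sided) each difference had p = 0.1, and no smaller p can be reached with 3 against 3 libraries. The number of identifiers with any count overlapped between the groups, at 16573 to 16843 in GM and 16647 to 16918 in DM (exact two-sided permutation p = 0.6). Among the 72 h media, the mean top 10 share was lowest in DM, at 9.47%, against 10.9% in DMEM, 13.3% in SFDM and 13.7% in SFB. SFGM libraries, at 8.90% to 9.42%, overlapped those of DM on this measure. For the 100 most abundant genes SFGM held 23.3% to 23.9%, below every DM library, and DMEM 26.3% to 27.8%.

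The most abundant genes of GM and DM were mostly different ones. Of the 10 most abundant genes of GM, 9 fell and 1 was not called, and their summed share went from 8.05% ± 0.182 of the counts to 3.64% ± 0.0819 (SD, n = 3). Of the 10 most abundant genes of DM, 8 rose, 1 fell and 1 was not called, and their share went from 3.30% ± 0.0543 to 9.45% ± 0.488. These lists had 2 genes in common, and the lists of the 100 most abundant had 44. One of the 10 leading genes of DM had ranked 2611 in GM, and one of the 10 leading genes of GM ranked 1601 in DM. The lists were chosen by level in these libraries, which favours falls in the GM list and rises in the DM list.

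**Figure D4:**
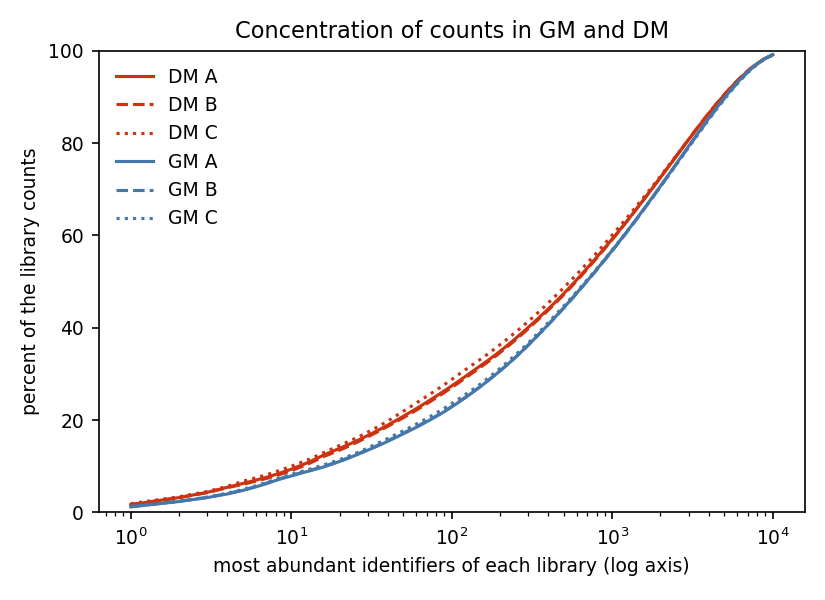
Percent of each library's counts (vertical axis) held by its most abundant identifiers (horizontal axis, logarithmic) in the 3 GM and 3 DM libraries. The DM curves run above the GM curves, with 27.1% to 28.8% against 22.9% to 23.6% of the counts in the first 100 identifiers.

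Gene groups were also chosen on SFDM against SFGM, a contrast that holds no GM or DM library. The GM and DM libraries were nonetheless used in the filter, the scaling factors and the spread estimate behind that choice. The 1919 genes raised at least 2-fold in SFDM against SFGM (13.1% of the genes tested) mostly rose in DM too, where 1622 rose (84.5%, against 34.2% of all genes tested), 82 fell (4.27%, against 35.5%) and 215 were not called. Their median log2 fold change in DM against GM was 2.04, with quartiles of 1.12 and 3.51, against -0.03 for all genes tested. They held 4.89%, 4.90% and 4.93% of the counts in GM replicates A, B and C and 26.2%, 26.0% and 27.6% in DM. The DM libraries were all above the GM libraries (exact two-sided permutation p = 0.1, the smallest possible).

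The 1561 genes lowered at least 2-fold in SFDM (10.7% of the genes tested) showed the mirror pattern. In DM 1216 fell (77.9%), 114 rose (7.30%) and 231 were not called, with a median log2 fold change of -1.42. Their share was 12.2%, 12.2% and 12.3% of the counts in GM replicates A, B and C and 4.75%, 4.77% and 4.73% in DM, with no overlap (exact two-sided permutation p = 0.1). With these genes held fixed, the raised group had 1626 rises with RLE scaling and 1595 with totals as the only scaling, and the lowered group had 1200 and 1261 falls. When the groups were chosen anew under each scaling, 1711 of 2040 raised genes rose with RLE scaling and 1414 of 1687 with totals alone, and 1064 of 1398 and 1572 of 1971 lowered genes fell.

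**Figure D5:**
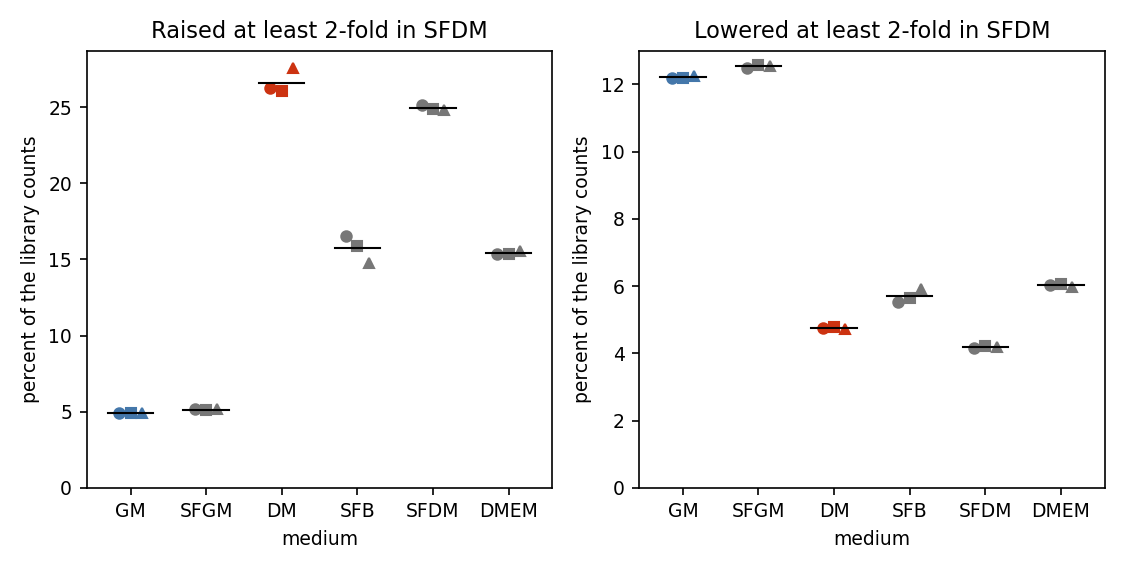
Percent of each library's counts (vertical axes) held by the 1919 genes raised (left) and the 1561 genes lowered (right) at least 2-fold in SFDM against SFGM, for each medium (horizontal axes), with circles, squares and triangles for replicates A, B and C and a bar for the mean. The groups were chosen on SFDM and SFGM, and their share was 4.89% to 4.93% in GM and 26.0% to 27.6% in DM for the raised genes.

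The same held for groups taken from the other serum-free media, which all share the SFGM libraries. Of the 2051 genes raised at least 2-fold in DMEM, 1658 rose in DM (80.8%), and of the 1613 raised in SFB, 1306 rose (80.97%). Of the 1541 genes lowered in DMEM 83.3% fell in DM, and of the 1116 lowered in SFB 72.3% fell. The 1075 genes raised at least 2-fold in all 3 media rose in DM in 944 cases (87.8%) and fell in 31, with a median log2 fold change of 2.76. The 650 genes lowered in all 3 fell in 567 cases (87.2%) and rose in 25, with a median of -2.06.

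The size of the response nevertheless differed between the serum-based and the serum-free route. A test of the difference between the responses in SFDM and DM passed for 39.9% of the genes tested. Among the 4999 genes that rose in DM it passed for 2519 (50.4%), and among the 5200 that fell for 2424 (46.6%). Of the 3091 genes that rose in both, 1282 passed, and the change was larger in DM for 1006 of these and larger in SFDM for 276. Of the 3529 genes that fell in both, 1507 passed, with the larger change in DM for 1195. Choosing genes by their call in DM favours a larger change there. Among the 1919 genes raised at least 2-fold in SFDM, a choice that favours SFDM, 509 rose further in DM and 429 further in SFDM. The other 981 did not pass. Among the 1561 genes lowered at least 2-fold in SFDM, 429 fell further in DM. For 502 the SFDM response was the lower one, and 630 did not pass. The 429 raised genes that changed further in SFDM include 82 that fell in DM, and the 502 include 114 that rose in DM. Genes not called in DM can also be among them. Even so, rising genes that passed more often changed further in DM under either choice. For falling genes the choices cover unlike sets, so which response was more often the larger one was not settled.

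Some genes responded in opposite directions. Of the genes that rose in DM, 430 fell in SFDM, and of those that fell in DM, 282 rose in SFDM. Such calls pass the test of the difference nearly by construction. A further 1478 genes that rose in DM were not called in SFDM, and 807 of these passed that test. Of the 1389 genes that fell in DM and were not called in SFDM, 635 passed. Across all genes, the root mean square log2 fold change was 1.66 in DM against GM and 1.35 in SFDM against SFGM. That measure includes fitted folds of genes with 0 counts in a group. The median absolute log2 fold change was 0.638 and 0.486.

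GM and DM were often the extremes of the 6 media. All 3 GM libraries lay above the other 15 libraries for 2251 genes (15.4%) and below them for 1767 (12.1%). For DM these numbers were 1294 (8.84%) and 1105 (7.55%). In the serum-free media the highest position was held for 343 genes in SFB (2.34%), 465 in SFDM (3.18%), 815 in SFGM (5.57%) and 847 in DMEM (5.79%). The lowest was held for 117 genes in SFB (0.799%), 493 in DMEM (3.37%), 505 in SFDM (3.45%) and 629 in SFGM (4.3%). Of the genes that rose in DM, 1150 (23.0%) had their lowest mean of all media in GM and their highest in DM. Of those that fell, 1257 (24.2%) had their highest mean in GM and their lowest in DM. GM and DM are the only serum-containing media, and whether serum set their position was not tested. At 0 h GM stood beside SFGM alone, and at 72 h DM stood beside SFB, SFDM and DMEM. The numbers are therefore not directly comparable between media.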

How the data were processed

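The authors deposited a table of read counts per Ensembl bovine gene identifier, from a stranded mRNA kit read to 75 bp per the labels. The submitters' processing notes name STAR 2.7, featureCounts and bosTau9; the release of the annotation and the strand setting of the counting were not found in the labels or headers, so antisense and near-identical genes cannot be separated with certainty. All 18 columns matched a sample label.

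Counts were analysed in R 4.3.3 with edgeR 4.0.16: filterByExpr by medium (minimum count 10, minimum total 15), TMM scaling, and a robust quasi-likelihood fit with a mean per medium over all 18 libraries, so that the media share an estimate of the spread. Contrasts were two-sided with Benjamini-Hochberg adjustment over all 14637 genes at 0.05. CPM used TMM-scaled totals, and log2 CPM a prior count of 2. Intervals of fold changes used the standard error implied by the fold change and its F statistic. Floors of 3 counts cover counting error only. The fit was tested on simulated counts. DESeq2 1.42.0, other scalings, filters, fewer libraries and a replicate block were alternatives.

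The reference table held 0 symbols for the 27607 identifiers, so 29 pathway lists and 8 cell type lists were not analysed here. The rule for named genes then gave the 2 largest rises and 2 largest falls by fitted fold change with an adjusted p under 0.05, libraries of GM and DM that do not overlap, and a mean of 5 CPM or more in GM or DM, whichever is higher. The members and lists were chosen with earlier results of these data known. No sequences could be matched.

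Deviations from the group means correlated between GM and DM libraries with the same letter, at 0.131, 0.184 and 0.426 for A, B and C, so the letters were taken to pair these groups. This pairing comes from the data only, and GM replicate A correlated more with DM replicate B (0.291). Between SFGM and SFDM same-letter correlations were -0.04, -0.04 and -0.22.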

Additional observations from a re-analysis of the deposited data

Results flagged for a closer look

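The response to serum-free differentiation (SFDM against SFGM) and the response to serum-based differentiation (DM against GM) differed by a direct test in 5841 genes (edgeR adjusted p under 0.05). Of the 4 example identifiers, 3 passed this test, which passed for 39.9% of all genes tested and 48.5% of those called in DM against GM. The 4 were picked for their large response in DM, which is one side of this test and favours passing it. ENSBTAG00000013492 stood at 74.5 CPM in DM against 24.2 CPM in SFDM (edgeR adjusted p = 0.000325). ENSBTAG00000038361, at 0 counts in DM, started from 10.7 CPM in GM but from 0.869 CPM in SFGM (edgeR adjusted p = 2.36e-05). ENSBTAG00000033748 started from 8.80 CPM in GM and 1.66 CPM in SFGM (edgeR adjusted p = 0.000271). Over the alternative settings the adjusted p of these 3 ranged from 1.56e-05 to 0.00199, from 2.32e-06 to 0.00198 and from 2.55e-06 to 0.00303. No fold of the difference is given, because each had 0 counts in GM or DM.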

How the results depend on the processing

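The count of genes called in DM against GM stayed between 9140 (minimum count of 50 in the filter) and 11006 over the other scalings (RLE, totals alone), filters (none, stricter), DESeq2, only the compared libraries and the replicate block, and between 9659 and 9889 when a GM or DM library was left out. With the replicate block 10064 genes were called, and 11006 with the block and only the compared libraries. No call named in the report changed with the pairing. At least 2-fold changes numbered 3881 to 5325, and 4772 to 4888 with a library left out. SFDM-raised genes that rose in DM numbered 1369 to 1711 and SFDM-lowered genes that fell 941 to 1572, with the groups chosen anew each time. The test of the difference between responses called 5590 to 6361, and 5269 to 5761 with a library left out. Scaling by totals alone shifted the median log2 fold change of all genes by -0.11 and made 42.5% of the calls rises, against 49.0% reported and 51.2% with RLE scaling. On TMM-scaled totals the difference in library share between DM and GM, in percentage points, moved from 1.41 to 2.11 for the 10 most abundant genes, from 4.63 to 6.64 for the 100 most abundant, from 21.7 to 23.0 for the SFDM-raised genes and from -7.46 to -6.82 for the SFDM-lowered genes. Without the most abundant gene these were 0.906 for the top 10, 20.0 for the raised and -7.19 for the lowered genes. With a library left out they ranged from 1.15 to 1.63, 4.11 to 4.99, 21.2 to 22.0 and -7.47 to -7.43. The cause of these moves was not tested. Of the tests on the 4 example identifiers under the alternatives, 135 of 136 kept their call. The exception was the difference between responses for ENSBTAG00000008763, with an edgeR adjusted p of 0.0686, and 0.0282 without SFGM replicate C. The fixed symbol lists could not be run.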

Other observations

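The direction of change varied with how abundant a gene was in SFGM, whose libraries are not part of DM against GM. SFGM is, like GM, a growth medium at 0 h. Grouping by its level can therefore favour falls among abundant genes and rises among scarce ones, and the values only describe these groups. Of the 77 genes with at least 1000 CPM in SFGM, 53 fell in DM and 12 rose, with a median log2 fold change of -0.55. Of the 1883 genes at 100 to 1000 CPM, 999 fell and 492 rose, with a median of -0.26. Of the 7098 genes at 10 to 100 CPM, 2866 fell and 2230 rose, with a median of -0.10. Of the 3455 genes at 1 to 10 CPM, 962 fell and 1288 rose, with a median of 0.10, which was -0.01 when libraries were scaled by totals alone. Precision rose with level: the 95% interval of a gene's log2 fold change had a median half-width of 0.40 at 1 to 10 CPM and 0.17 at 100 to 1000 CPM. The 2124 genes below 1 CPM in SFGM can have passed the expression filter through another medium, and their direction was not interpreted.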
